A study of Mus musculus with 10 samples.

Results

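Transcripts of 40 mitotic cell cycle genes were followed in mouse embryonic stem (ES) cells that lack Rybp and in wild type cells, and in cultures differentiated from both toward the heart lineage. The genes were a list of names covering S phase to mitosis, without the MCM replication helicase, and all 40 were found among the 36191 genes of the count table. RYBP is a zinc finger protein of variant Polycomb repressive complex 1, which represses developmental genes. Per the labels, Rybp null mutant cells were sampled as 1 library at day 0 and as 2 libraries each at days 8 and 14, and wild type cells were sampled in the same numbers. The day 0 libraries came from undifferentiated ES cells kept with leukemia inhibitory factor, and the later ones from cardiac cultures grown out of hanging-drop embryoid bodies. All cells shared the strain background 129x1 x 129S1. The labels name no clone or number of clones, so a difference between genotypes is a difference between these lines. Nor do they say whether replicates were separate cultures, so the p-values measure the spread between these libraries, which may be technical. With 1 library per genotype, the day 0 samples have no replicate.

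Library totals ran from 3028153 to 6890792 counts. Levels are given in CPM, the usual depth-scaled count with library sizes adjusted by TMM, at which 1 count was worth 0.169 to 0.33 CPM. All 40 genes passed the filter on low counts and were tested in every comparison, and the lowest level of any was 3.21 CPM, of Cdc25c in a null library at day 14. Rybp itself held 1 to 4 counts in the 5 null libraries, against 64 to 231 counts in the 5 wild type libraries. Summed ES cell markers stood at 9866 CPM for the null library and 5625 CPM for the wild type one at day 0. In the cultures labelled cardiac, 7 cardiomyocyte markers summed to 105 and 59.0 CPM at day 8 and 172 and 246 CPM at day 14 in null cultures, against 2536 and 2087 CPM and 1006 and 892 CPM in wild type cultures.

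Cells copy their DNA in S phase and part the copies in mitosis. Cyclins switch on cyclin-dependent kinases (CDKs), which drive entry into each phase, and the anaphase-promoting complex (APC/C) ends mitosis by marking cyclin B and securin for destruction. Kinetochores, built on centromeres, tie chromosomes to the spindle, and the spindle checkpoint holds back the APC/C until every chromosome is tied. Many of these genes are transcribed only in cycling cells, where the MuvB complex with B-MYB and FOXM1 turns on those of G2 and mitosis and E2F factors turn on those of G1 and S phase. Mouse ES cells cycle fast and spend little time in G1, and their differentiating progeny slow down or leave the cycle.

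Summed over the 40 genes, levels were highest in ES cells and lowest at day 14. Their summed level was 10563 CPM at day 0, 5694 and 6288 CPM at day 8 and 2553 and 2670.2 CPM at day 14 in null cells, against 9136 CPM, 5258 and 5634 CPM and 3963 and 3963 CPM in wild type cells. Null libraries therefore held the higher sums at days 0 and 8 and the lower ones at day 14. The libraries of the genotypes overlapped on neither later day, but at day 8 the separation was narrow. There null replicate 1 (5694 CPM) lay just above wild type replicate 2 (5634 CPM), a gap smaller than their difference in Cenpf alone. Their TMM factors were 0.997 and 1.02, so their order also depends on the scaling. These are bulk cultures, in which fewer cycling cells and less RNA per cycling cell cannot be told apart.

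**Figure D1:**
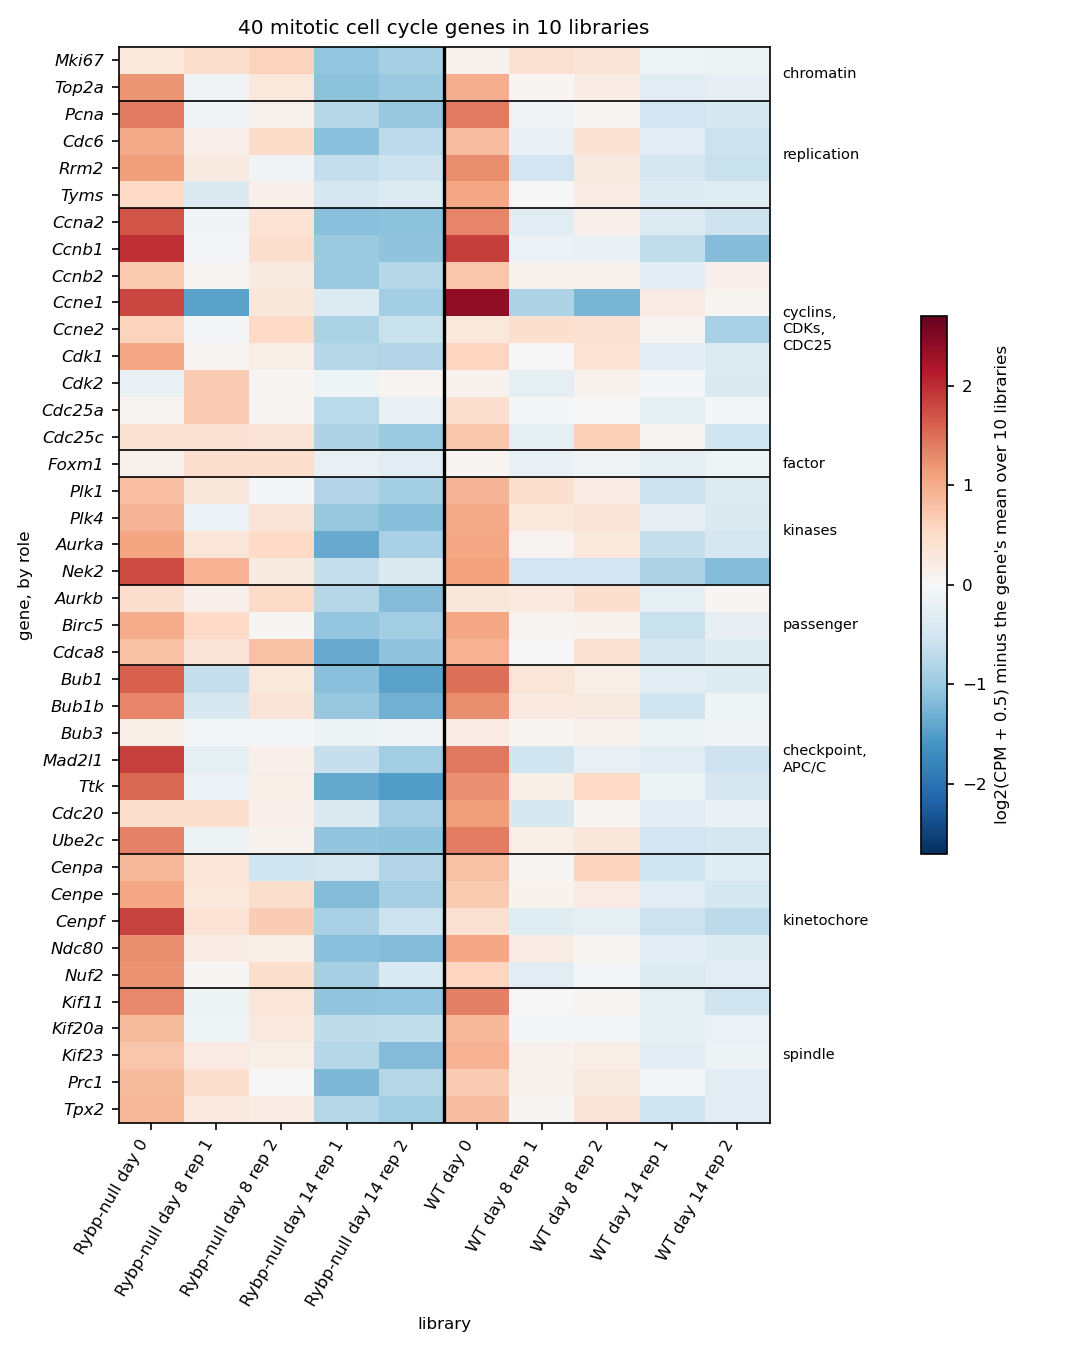
Level of each of the 40 genes (rows, by role) in the 10 libraries (columns, null left of wild type, by day), as log2(CPM + 0.5) minus the gene's mean over the 10 libraries; red is above and blue below that mean. Both day 0 columns are red for most genes, and the bluest columns are those of null day 14, where the 40 genes sum to 2553 and 2670.2 CPM against 3963 and 3963 CPM in wild type.

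At day 14 against day 0, 36 of the 40 genes fell in null cells and 32 in wild type cells, and 0 rose in either (edgeR quasi-likelihood test, adjusted p under 0.05). Over all 15819 genes tested, 22.5% were called lower and 23.8% higher in null cells, and 20.8% lower and 24.1% higher in wild type cells. The median log2 fold change of the 40 was -1.90 in null and -1.30 in wild type cells, against 0.08 and 0.18 over all genes. All 32 genes called in wild type cells were among the 36 called in null cells, and the other 4 were Aurkb, Ccne2, Cdc25c and Mki67. At day 8 against day 0, 23 genes fell in null cells and 24 in wild type cells, 20 of them in both, and 0 rose. The share of all genes called lower at day 8 was 18.6% in null and 19.3% in wild type cells, and 19% and 21.2% were called higher. The medians of the 40 at day 8 were -0.73 and -0.77. In these comparisons the lone day 0 library was taken to have the same spread as the replicated groups. Scaling by library totals instead of TMM shifts the median of all genes by 0.21 to 0.29 in them, and the medians of the 40 were then -0.49 and -0.56 at day 8 and -1.61 and -1.08 at day 14, in null and wild type cells in that order. Without wild type day 8 replicate 1, 14 genes were called at day 8 in wild type cells.

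The promoters of the genes were searched for letters known from cell cycle promoters. The cell cycle homology region (CHR, either TTTGAA or its variant form TTCGAA) is bound by MuvB in genes of G2 and mitosis, and CCAAT boxes by the factor NF-Y. RefSeq promoters (GRCm38.p6, from 250 bases before to 50 bases after the start) were matched for 33 of the 40 genes. A CHR on either strand stood in 19 of the 33 (57.6%) and in 21.7% of the promoters of 27025 genes. At least 1 CCAAT box on either strand stood in 25 (75.8%), against 41.1% of all. At least 2 stood in 16 (48.5%), against 13.3%. CCAAT boxes of the same direction with starts 31 to 35 bases apart, a spacing chosen after seeing these sequences, stood in 7 genes (21.2%), against 1.07%: Ccnb1, Ccnb2, Cdk1, Aurka, Nek2, Cdca8 and Ube2c. Both a CHR and a CCAAT box stood in 18 (54.5%), against 8.61%. An E2F octamer (TTTGGCGC, TTTCCCGC, TTTGCCGC or TTTCGCGC, either strand) stood in 4 genes (12.1%), against 2.6%: Cdc6, Cdk1, Cdk2 and Cdc25a. A match of letters is a description and does not show a bound site.

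The 200 bases before the start are shown for 5 genes: Mki67, Ttk and Cenpf were called between genotypes, and Top2a and Ccnb2, chosen after seeing their boxes, fell from day 0 to day 14 in both. Ndc80 was called too, but 162 of its 200 bases lie in annotated exons and are not printed; in the 300 bases searched it held 1 CHR and no CCAAT box. Capitals mark matches to CCAAT boxes and CHR hexamers on either strand; no CHR overlapped a CCAAT box in them. The windows are, for Mki67, chr7:135716380-135716579 on the minus strand; for Ttk, chr9:83834489-83834688 on the plus strand; and for Cenpf, chr1:189688087-189688286 on the minus strand. Those of Top2a and Ccnb2 are chr11:99024190-99024389 on the minus strand and chr9:70421555-70421754 on the minus strand. All are GRCm38.p6, written 5′ to 3′ on the gene's strand.
Mki67: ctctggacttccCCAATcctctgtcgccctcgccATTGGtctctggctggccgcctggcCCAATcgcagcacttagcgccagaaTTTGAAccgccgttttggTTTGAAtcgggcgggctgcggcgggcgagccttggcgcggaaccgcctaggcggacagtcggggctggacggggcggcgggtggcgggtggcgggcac
Ttk: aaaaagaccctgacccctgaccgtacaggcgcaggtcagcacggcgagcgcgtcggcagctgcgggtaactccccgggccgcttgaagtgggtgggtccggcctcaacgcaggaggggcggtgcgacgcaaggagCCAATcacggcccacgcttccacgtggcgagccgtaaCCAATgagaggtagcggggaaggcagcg
Cenpf: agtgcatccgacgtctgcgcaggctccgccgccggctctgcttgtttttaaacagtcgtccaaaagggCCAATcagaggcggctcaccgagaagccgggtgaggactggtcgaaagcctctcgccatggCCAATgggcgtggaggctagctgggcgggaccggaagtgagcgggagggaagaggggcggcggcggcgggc
Top2a: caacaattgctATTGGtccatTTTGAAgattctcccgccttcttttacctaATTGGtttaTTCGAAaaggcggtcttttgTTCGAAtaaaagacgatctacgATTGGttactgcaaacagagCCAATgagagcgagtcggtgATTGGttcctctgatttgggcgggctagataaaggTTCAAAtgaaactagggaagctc
Ccnb2: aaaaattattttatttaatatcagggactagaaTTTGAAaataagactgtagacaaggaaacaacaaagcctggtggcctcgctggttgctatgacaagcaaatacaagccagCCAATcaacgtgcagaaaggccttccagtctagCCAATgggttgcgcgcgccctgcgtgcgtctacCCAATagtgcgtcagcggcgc

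Mki67 held 3 CCAAT boxes and 2 CHR hexamers in this stretch, and Top2a 5 and 4. Ttk and Cenpf held 2 CCAAT boxes each and no CHR in the printed 200 bases, though both have a CHR elsewhere in the 300 searched. In Ccnb2 the starts of 3 CCAAT boxes lie at -87, -54 and -21. At day 14 the median log2 fold change between genotypes was -0.72 over the 18 genes with both a CHR and a CCAAT box and -0.35 over the 15 without. At day 14 against day 0 in null cells the same medians were -1.93 and -2.01, and at day 8 between genotypes 0.01 and 0.24. These medians are descriptions, with no test. Genes of chromosomes 1 and 6 ran higher in null libraries over the genome, as given below. Of the 5 listed genes there, only Cenpf is among the 18, and Nek2 (0.51 at day 14) is among the 15. The part of the chromosomes in these medians was not tested.

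Mki67 encodes the Ki-67 protein that coats mitotic chromosomes and marks cycling cells, and Top2a encodes the topoisomerase that untangles them. Mki67 had 978 CPM at day 0, 1096 and 1212 CPM at day 8 and 384 and 426 CPM at day 14 in null cells, against 846 CPM, 1060.2 and 1019.9 CPM and 735 and 727 CPM on those days in wild type cells. At day 8 its log2 change from day 0 was not called (0.24 in null and 0.30 in wild type cells). Both null libraries were above both wild type ones at day 8 and below them at day 14. At day 14 against day 8 it fell in null cells (log2 change -1.51 with an SE of 0.15, adjusted p = 0.000154), while the wild type change was -0.51 (adjusted p = 0.0796). Scaled by library totals, Mki67 was called higher at day 8 than at day 0 in wild type cells (0.51), and its wild type change from day 0 to day 14 was 0.02 in place of -0.21. Top2a had 1516 CPM at day 0, 618 and 805 CPM at day 8 and 307 and 327 CPM at day 14 in null cells, against 1299 CPM, 687 and 753 CPM and 540.5 and 565 CPM on those days in wild type cells. It fell by day 8 in both genotypes (-1.09 in null and -0.85 in wild type cells), and again by day 14 in null cells (-1.17).

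**Figure D2:**
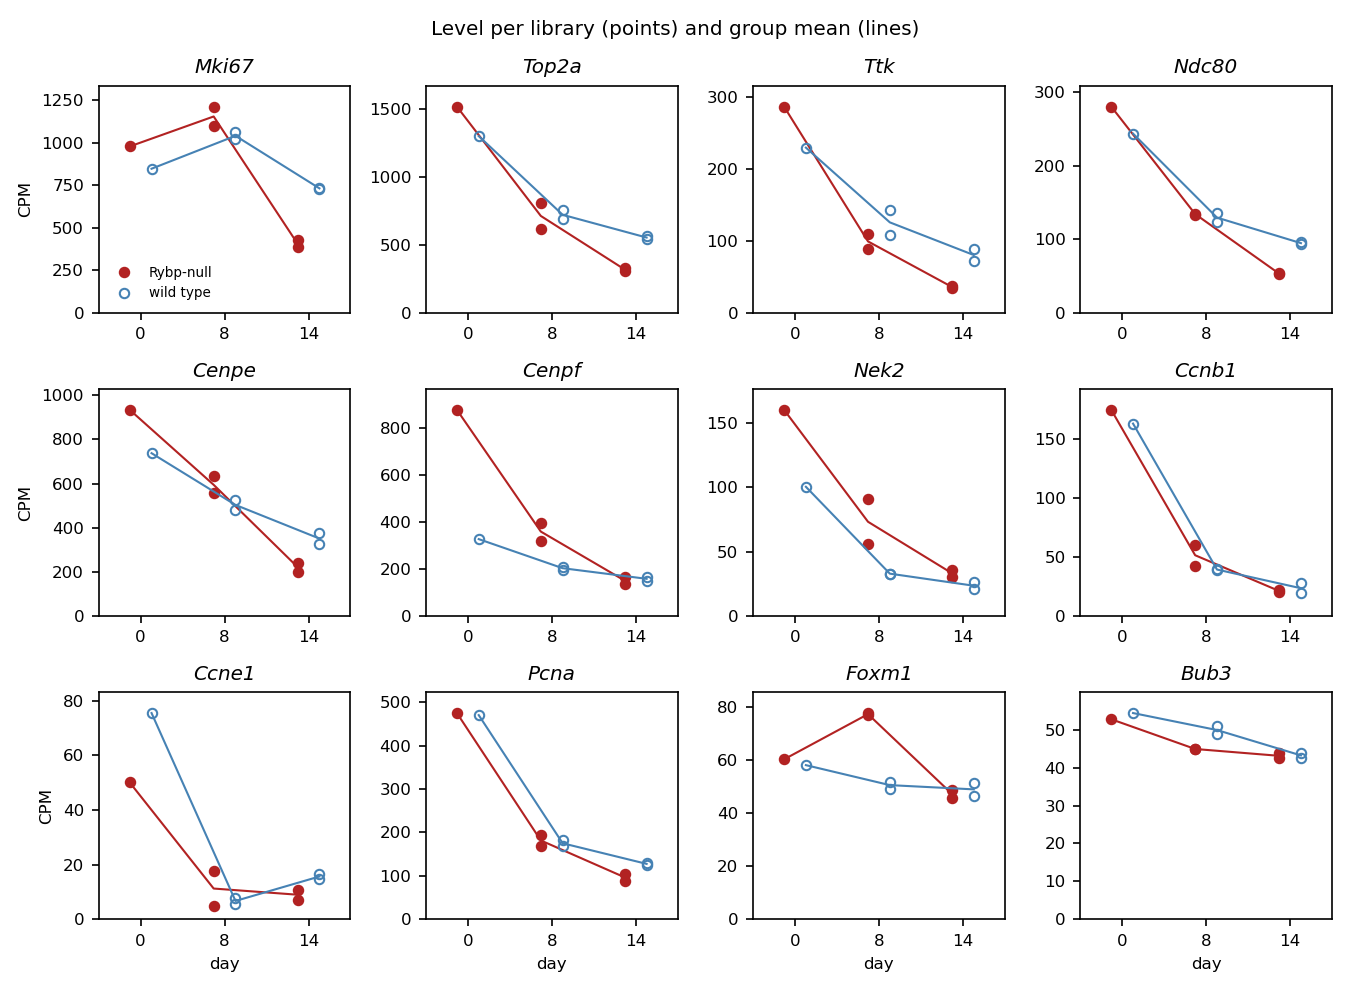
CPM of 12 of the genes in every library by day (points, null left of wild type at each day) with lines through the group means; each vertical axis starts at 0. Mki67, Top2a, Ttk and Ndc80 show null points below wild type points at day 14, Nek2 shows null points above, and Bub3 lies between 42.5 and 54.4 CPM in all 10 libraries.

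Pcna encodes the sliding clamp of DNA polymerase, Cdc6 loads the replicative helicase, and Rrm2 and Tyms make deoxynucleotides. Pcna had 475 CPM at day 0, 168 and 195 CPM at day 8 and 105 and 87.2 CPM at day 14 in null cells, against 470.1 CPM, 167 and 182 CPM and 125 and 129 CPM on those days in wild type cells. All 4 fell from day 0 to day 14 in both genotypes, between -0.97 (Tyms) and -2.30 (Pcna) in null cells and between -1.27 (Cdc6) and -1.89 (Pcna) in wild type cells on the log2 scale. At day 14 their genotype differences ran from -0.48 (Cdc6) to -0.06 (Rrm2), and none was called. Pcna may share reads with a pseudogene, Pcna-ps2, counted at a mean of 201 CPM over the 10 libraries, so its level is uncertain. Rrm2 was at 163 CPM in the single null library and 177 CPM in wild type ES cells, and at day 14 at 47.0 and 50.4 CPM among null libraries and 52.9 and 48.8 CPM in wild type cultures, where the groups overlapped.

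Cyclin A2 and the B cyclins drive S phase and mitosis with CDK1, cyclin E with CDK2 starts replication, and the CDC25 phosphatases activate CDKs. Of these 9 genes, 7 fell in null cells and 5 in wild type cells at day 14 against day 0. Ccna2 had 400.4 CPM at day 0, 116 and 158 CPM at day 8 and 56.3 and 57.3 CPM at day 14 in null cells, against 309 CPM, 101 and 135 CPM and 95.5 and 84.0 CPM on those days in wild type cells. Day 8 levels were below day 0 in both genotypes, and the null day 14 libraries lay below the wild type ones. Ccnb1 had 175 CPM at day 0, 42.3 and 60.4 CPM at day 8 and 21.7 and 20.5 CPM at day 14 in null cells, against 163 CPM, 39.6 and 38.9 CPM and 27.7 and 19.1 CPM on those days in wild type cells. It had the lowest estimate of the 40 genes from day 0 to day 14 in both genotypes, with Ttk close to it in null cells, and fell 8.27-fold in null and 6.98-fold in wild type cells (log2 change -3.05 with an SE of 0.28, adjusted p = 4.75e-06 in null; log2 change -2.80 with an SE of 0.28, adjusted p = 1.11e-05 in wild type). Its pseudogene Ccnb1-ps averaged 25 CPM and may share its reads. Ccne1 had 50.1 CPM at day 0, 4.84 and 17.6 CPM at day 8 and 10.7 and 7.17 CPM at day 14 in null cells, against 75.5 CPM, 7.67 and 5.64 CPM and 16.4 and 14.8 CPM on those days in wild type cells. At day 8 against day 0 it fell in both genotypes (log2 change -2.18 with an SE of 0.50, adjusted p = 0.00498 in null; log2 change -3.51 with an SE of 0.53, adjusted p = 0.00027 in wild type). The null day 8 replicates of Ccne1 lay far apart, on either side of both wild type ones, and the null change was -1.51 without replicate 1 and -3.37 without replicate 2. Its estimate at day 8 was the lowest of the 40 in wild type cells, and in null cells only with replicate 1 included, since without it Mad2l1 was lower (-1.70). Cdk2 had 8.12 CPM at day 0, 15.0 and 9.50 CPM at day 8 and 8.45 and 9.64 CPM at day 14 in null cells, against 9.90 CPM, 7.67 and 9.86 CPM and 8.82 and 6.89 CPM on those days in wild type cells. It was called in no comparison, as were Cdc25a and Bub3. Ccne2 and Cdc25c were called from day 0 to day 14 in null cells (-1.35 and -1.43) and had -0.63 and -1.0 in wild type cells. Cdk1 fell by 1.85 in null and by 0.91 in wild type cells on the log2 scale.

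Foxm1 encodes the forkhead factor that activates mitotic genes. It had 60.2 CPM at day 0, 76.9 and 77.7 CPM at day 8 and 48.7 and 45.7 CPM at day 14 in null cells, against 58.1 CPM, 49.2 and 51.9 CPM and 46.5 and 51.3 CPM on those days in wild type cells. It was not called at day 14 against day 0 in either genotype (-0.35 in null and -0.25 in wild type cells). The null day 8 libraries stood above all others for Foxm1 (log2 change 0.61 with an SE of 0.20, adjusted p = 0.177 for null against wild type). At day 14 against day 8 it fell in null cells (log2 change -0.71 with an SE of 0.20, adjusted p = 0.047), and the wild type change was -0.05. That null call was lost under 13 of 15 alternatives, among them DESeq2 (adjusted p = 0.0896), library totals (adjusted p = 0.0657) and each of the 8 libraries left out in turn, and its adjusted p ran from 0.0466 to 0.202.

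PLK1 and Aurora A mature the centrosomes and build the spindle, PLK4 copies centrioles, and NEK2 parts the centrosomes. All 4 fell in both genotypes from day 0 to day 14. Plk1 had 225 CPM at day 0, 158 and 125 CPM at day 8 and 74.3 and 67.2 CPM at day 14 in null cells, against 242 CPM, 173 and 149.9 CPM and 86.1 and 99.8 CPM on those days in wild type cells. It was the 1 gene of the 40 that fell from day 8 to day 14 in wild type cultures (log2 change -0.80 with an SE of 0.19, adjusted p = 0.0327), and it fell in null cultures as well (-1.0). Nek2 had 160.1 CPM at day 0, 90.7 and 55.5 CPM at day 8 and 30.4 and 35.8 CPM at day 14 in null cells, against 100.3 CPM, 32.9 and 32.7 CPM and 26.2 and 20.7 CPM on those days in wild type cells. Its null libraries lay above the wild type ones on every day, and it is 1 of 5 genes of the list on chromosomes 1 and 6. Aurka was at 24.5 and 34.4 CPM at day 14 and 80.3 and 92.7 CPM at day 8 in null cells, a fall of 1.55 on the log2 scale. Plk4 was at 40.8 and 37.6 CPM among null libraries and 71.8 and 63.3 CPM in wild type cultures at day 14, where the groups did not overlap (-0.78, adjusted p = 0.121).

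Aurora B kinase, survivin (Birc5) and borealin (Cdca8) correct faulty attachments of chromosomes and guide the last cut between daughter cells. Per kilobase of exon in the GENCODE annotation, Birc5 had 199.7 CPM per kilobase in null and 206 CPM per kilobase in wild type cells at day 0. Pcna, whose level is uncertain for the reads of its pseudogene, had 198 and 196 CPM per kilobase, so the order of these highest genes is not settled. Cdk2 had the lowest level of the 40, 1.31 and 1.59 CPM per kilobase. Birc5 had 679 CPM at day 0, 492 and 348 CPM at day 8 and 165 and 175 CPM at day 14 in null cells, against 699.7 CPM, 355 and 362 CPM and 223 and 291 CPM on those days in wild type cells. Its null day 14 libraries were below all others. Cdca8 had 85.3 CPM at day 0, 63.1 and 85.8 CPM at day 8 and 18.9 and 23.0 CPM at day 14 in null cells, against 95.7 CPM, 49.2 and 65.7 CPM and 35.3 and 38.8 CPM on those days in wild type cells. At day 8 it was not called against day 0 in null cells (-0.20), and from day 8 to day 14 it had the largest fall of the 40 in null cells (log2 change -1.82 with an SE of 0.25, adjusted p = 0.000984). The wild type change was -0.63 (adjusted p = 0.196). Aurkb was at 27.6 and 21.0 CPM among null libraries and 39.8 and 49.0 CPM in wild type cultures at day 14 (-0.87, adjusted p = 0.142), and at day 14 against day 0 it was called in null cells (-1.43) and had -0.41 in wild type cells.

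TTK (MPS1), BUB1, BUBR1 (Bub1b), BUB3 and MAD2 (Mad2l1) form the checkpoint, while CDC20 activates the APC/C and UBE2C serves it as ubiquitin-conjugating enzyme. Of these 7 genes, 6 fell in null cells and 6 in wild type cells at day 14 against day 0. Ttk had 287 CPM at day 0, 88.3 and 109.9 CPM at day 8 and 37.2 and 34.4 CPM at day 14 in null cells, against 229.6 CPM, 109 and 143 CPM and 88.8 and 71.5 CPM on those days in wild type cells. It fell 8.01-fold from day 0 to day 14 in null cells and 2.87-fold in wild type cells (log2 change -3.0 with an SE of 0.24, adjusted p = 1.56e-06 in null; log2 change -1.52 with an SE of 0.24, adjusted p = 0.000283 in wild type). The difference between those falls was -1.48 (adjusted p = 0.161), not called. Mad2l1 had 521 CPM at day 0, 123 and 159.7 CPM at day 8 and 94.6 and 75.4 CPM at day 14 in null cells, against 392 CPM, 99.7 and 127 CPM and 118 and 99.3 CPM on those days in wild type cells. It fell by day 8 in both genotypes, and the change from day 8 to day 14 was called in null cultures (-0.74 in null, called; -0.06 in wild type, not called). That null call was made in 1 of the 8 fits that left out a library, with values from -0.91 to -0.54. Bub3 had 52.8 CPM at day 0, 45.0 and 44.9 CPM at day 8 and 42.5 and 43.7 CPM at day 14 in null cells, against 54.4 CPM, 48.9 and 51.0 CPM and 42.6 and 43.9 CPM on those days in wild type cells. Bub3 had no log2 fold change beyond -0.33 in any comparison. At day 14 Bub1 lay at 35.5 and 28.4 CPM in null cultures, against 63.3 and 61.3 CPM in wild type cultures. Bub1b lay at 42.8 and 35.1 CPM in null cultures, against 59.9 and 79.9 CPM in wild type cultures, and neither gene's groups overlapped. Cdc20 was at 38.9 CPM in the single null library and 61.4 CPM in wild type ES cells, the lowest null to wild type ratio of the 40 at day 0 (-0.65 on the log2 scale). Ube2c fell by 2.44 in null and by 1.90 in wild type cells from day 0 to day 14.

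CENP-A is the histone H3 variant that marks centromeres, NDC80 and NUF2 belong to the complex that grips microtubules, CENP-E is a motor that moves chromosomes to the spindle equator, and CENP-F is a large coat protein of the kinetochore. All 5 genes fell in both genotypes from day 0 to day 14. Cenpe had 934 CPM at day 0, 555 and 633 CPM at day 8 and 201 and 241 CPM at day 14 in null cells, against 738 CPM, 481 and 525 CPM and 373 and 327 CPM on those days in wild type cells. Its genotypes crossed, with null libraries above wild type ones at days 0 and 8 and below them at day 14. Ndc80 had 281 CPM at day 0, 135 and 134 CPM at day 8 and 54.1 and 52.1 CPM at day 14 in null cells, against 244 CPM, 135 and 124 CPM and 96.1 and 93.2 CPM on those days in wild type cells. Ndc80 had a genotype difference of 0.05 at day 8 (not called) and was lower in null cultures at day 14. Cenpf had 876 CPM at day 0, 319.6 and 397 CPM at day 8 and 135 and 165 CPM at day 14 in null cells, against 326 CPM, 196 and 209 CPM and 165 and 149.8 CPM on those days in wild type cells. In null ES cells Cenpf was 2.68-fold above wild type, and at day 14 the genotypes overlapped (-0.07). Cenpa had 62.3 CPM at day 0, 42.3 and 23.0 CPM at day 8 and 24.5 and 19.3 CPM at day 14 in null cells, against 58.4 CPM, 34.2 and 51.6 CPM and 23.1 and 26.5 CPM on those days in wild type cells. Its replicates overlapped between genotypes on both later days, and it had the largest of the 3 positive interaction estimates between days 8 and 14 (0.20). Nuf2 was at 30.1 and 42.3 CPM among null libraries and 43.5 and 45.4 CPM in wild type cultures at day 14, with no overlap (-0.29, not called).

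KIF11 pushes spindle poles apart, TPX2 activates Aurora A and nucleates microtubules, and KIF20A, KIF23 and PRC1 organise the midzone where the cell divides. All 5 genes fell in both genotypes from day 0 to day 14, and in null cultures all 5 fell again from day 8 to day 14, though the Kif20a call was made in 1 of the 8 fits that left out a library (values from -0.94 to -0.56). Kif11 had 282 CPM at day 0, 103 and 142 CPM at day 8 and 54.1 and 54.6 CPM at day 14 in null cells, against 293 CPM, 115 and 117 CPM and 94.6 and 78.6 CPM on those days in wild type cells. Tpx2 had 270.2 CPM at day 0, 176 and 167 CPM at day 8 and 85.0 and 75.6 CPM at day 14 in null cells, against 262 CPM, 149 and 185 CPM and 100.1 and 119 CPM on those days in wild type cells. For both, the null day 14 libraries were the lowest of the 10. At day 14 the genotype differences of the 5 ran from -0.80 (Prc1) to -0.45 (Tpx2), with no overlap between genotypes for any, and none was called. Kif20a and Kif23 had log2 changes of -0.48 and -0.76 in that comparison.

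The genotypes were compared directly at day 14. In null cultures 3 of the 40 genes were lower and 0 higher, against 0.354% of all genes called lower and 0.259% called higher. Mki67 was at 405 ± 29.7 CPM among null and 731 ± 6.16 CPM among wild type libraries (SD, n = 2 each; log2 change -0.85 with an SE of 0.15, adjusted p = 0.0229 by the edgeR test). Ttk, the checkpoint kinase, was at 35.8 ± 1.99 CPM among null and 80.1 ± 12.3 CPM among wild type libraries (log2 change -1.16 with an SE of 0.21, adjusted p = 0.0305). Ndc80, of the microtubule-gripping complex, was at 53.1 ± 1.35 CPM among null and 94.6 ± 2.08 CPM among wild type libraries (log2 change -0.83 with an SE of 0.17, adjusted p = 0.049). In each of the 3 the groups were separate, with both null libraries below both wild type ones. Below 0 were the estimates of 38 of the 40 genes, against 51.2% of all genes, and their median was -0.52, against -0.01 over all genes. Both null libraries lay below both wild type libraries in 30 of the 40 genes (22.8% of all genes) and above them in 1, Nek2 (20.9%). An unadjusted p under 0.05 was reached by 21 of the 40, against 12.9% of all genes. The exceptions above 0 were Nek2 (0.51) and Cdk2 (0.21).

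The 3 calls at day 14 depended on single libraries. When a null day 14, wild type day 8 or wild type day 14 library was left out, replicate 1 or 2 alike, 0 of the 40 genes were called, and 9 were called without either null day 8 replicate. The calls over all genes moved too: there were 14 to 79 in the 6 fits of the first kind and 297 to 301 in the other 2, against 97 with every library. DESeq2 called 5, adding Cenpe and Top2a, and 202 over all genes. Keeping every gene with any count led to 11, all lower, and to 637 over all genes, against 97. Ndc80 was not called when libraries were scaled by their totals (adjusted p = 0.0595), with only the groups compared (adjusted p = 0.0727) or without genes of chromosomes 1, 6, 8, 14 and Y (adjusted p = 0.0742). The median over the 40 genes lay between -0.57 and -0.52 without each library in turn.

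Markers of other cell types differed between the genotypes at day 14 as well. Of 7 cardiomyocyte markers 4 were lower in null cultures and 0 higher, with sums of 172 and 246 CPM among null libraries and 1006 and 892 CPM in wild type cultures. Of 5 macrophage markers 0 were called, with sums of 95.2 and 119 CPM in null cultures, against 227 and 334 CPM in wild type cultures. Of 5 fibroblast and mesenchyme markers 0 were called, with sums of 8329.8 and 8474 CPM in null cultures, against 7306 and 7654 CPM in wild type cultures. Of 4 endothelial markers 1 was lower, with sums of 134 and 95.4 CPM among null libraries and 179 and 135 CPM in wild type cultures. The lower one was Tek (-1.43), Pecam1 and Kdr had -0.98 and -0.83, and Cdh5 went the other way (1.86, not called). Of 4 erythroid markers 0 were called, with sums of 13 and 14.3 CPM in null cultures, against 21.6 and 5.62 CPM in wild type cultures. Their estimates went both ways, from -3.78 (the embryonic globin Hbb-bh1, with 0 counts in both null libraries) to 1.58 (Alas2). Wild type levels were near the floor too, with the lowest erythroid marker at 0.912 and 0 CPM. Of 3 endoderm markers 1 was lower, with sums of 59.7 and 17.1 CPM among null libraries and 102 and 84.5 CPM in wild type cultures. The part of these cell types in the lower level of the 40 genes was not tested.

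At day 8 the genotypes were compared in the same way. In null cultures 1 of the 40 was higher and 0 lower, against 0.506% of all genes called higher and 0.759% called lower. Cenpf was at 358 ± 54.6 CPM among null and 203 ± 9.18 CPM among wild type libraries (SD, n = 2 each; log2 change 0.82 with an SE of 0.17, adjusted p = 0.0433). Nek2, the centrosome kinase, was at 73.1 ± 24.8 CPM among null and 32.8 ± 0.148 CPM among wild type libraries but just missed the threshold (log2 change 1.16 with an SE of 0.26, adjusted p = 0.0514). Estimates above 0 were found for 27 of the 40, against 51.1% of all genes, with a median of 0.09 against 0.01. An unadjusted p under 0.05 was reached by 3 of the 40, against 13.4% of all genes. Both null libraries lay above both wild type ones in 10 genes and below them in 2, against 21.1% and 20.9% of all genes. The lowest estimate was that of Cenpa (-0.39). Cenpf was not called without null day 8 replicate 2, either wild type day 8 replicate or either wild type day 14 replicate (adjusted p = 0.0691 to 0.428). At that time 7 of 7 cardiomyocyte markers, 2 of 3 endoderm markers and 2 of 5 macrophage markers were lower in null cultures, and 2 of 6 ES cell markers were higher, with ES cell marker sums of 55.9 and 111 CPM among null libraries and 23.6 and 34.1 CPM in wild type cultures. The endoderm markers summed to 5.56 and 29.9 CPM in null cultures, against 54.9 and 77.2 CPM in wild type cultures, and the macrophage markers to 4.84 and 0.863 CPM in null cultures, against 56.5 and 33.5 CPM in wild type cultures. Of the 4 erythroid and 4 endothelial markers 0 were called, with erythroid sums of 610.3 and 362 CPM in null cultures, against 329.6 and 311 CPM in wild type cultures, and endothelial sums of 296 and 249.5 CPM in null cultures, against 418 and 399 CPM in wild type cultures. Endothelial estimates went both ways, from -0.90 (Kdr) to 0.52 (Cdh5). Of the 5 fibroblast and mesenchyme markers 0 were called, with sums of 6643 and 3664 CPM in null cultures, against 8371 and 7055 CPM in wild type cultures. The atrial light chain gene Myl7 had 0 counts in both null libraries. The part of these cells in the values was not tested.

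**Figure D3:**
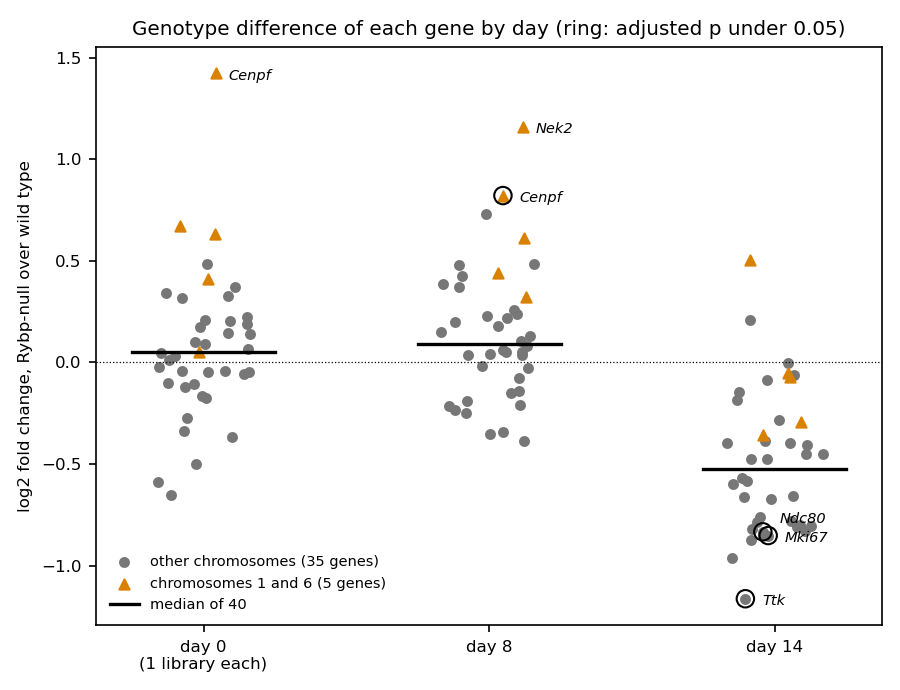
Log2 fold change of null over wild type for each of the 40 genes at days 0, 8 and 14; triangles are the 5 genes on chromosomes 1 and 6, circles the other 35, bars the median, and rings an adjusted p under 0.05 (not tested at day 0). The median lies at 0.05, 0.09 and -0.52, and at day 14 it is the circles that lie lower, at a median of -0.60.

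Genes of chromosomes 1 and 6 were higher in null libraries over the genome: their median log2 fold changes at day 8 were 0.42 and 0.22, against -0.01 for other autosomes, and at day 14 they were 0.41 and 0.19, against -0.05. Nek2, Cenpf and Nuf2 lie on chromosome 1 and Foxm1 and Mad2l1 on chromosome 6. The median of these 5 was 0.61 at day 8 and -0.07 at day 14, while that of the other 35 was 0.05 at day 8 and -0.60 at day 14. The only gene called at day 8 and the only one with separate, higher null libraries at day 14 are among the 5, and all 3 genes called lower at day 14 are among the 35. The part of the chromosomes in these values was not tested.

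In ES cells the genotypes were set side by side without a test, since each had 1 library. At day 0, a difference of 2-fold or more toward the null side was found for 1 of the 40 genes and toward the wild type side for 0, against 7.72% and 4.44% of the 10865 genes that reached 5 CPM in one of the libraries. The 1 was Cenpf (876 CPM in the single null library and 326 CPM in wild type). Ratios above 1 were found for 23 of the 40, against 54.2% of those genes, and the median log2 ratio was 0.05, against 0.06. The 5 genes of chromosomes 1 and 6 had a median of 0.63 and the other 35 one of 0.01.

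The later part of the course was compared within each genotype. From day 8 to day 14, 30 of the 40 genes fell in null cultures and 0 rose, against 3.41% of all genes called lower and 4.29% called higher. In wild type cultures 1 fell, Plk1, and 0 rose, against 1.57% and 2.47% of all genes. The median was -1.15 in null and -0.46 in wild type cultures, against -0.01 and 0.00 over all genes. Both day 14 libraries lay below both day 8 libraries in 36 genes in null and in 31 genes in wild type cultures, against 22.9% and 25.1% of all genes. All 40 null estimates and 39 of the 40 wild type estimates were below 0, against 50.7% and 48.8% of all genes, with Ccne1 the exception (1.23). In wild type cultures 22 of the 40 had an unadjusted p under 0.05 there, against 16.5% of all genes. The null count was 17 without null day 14 replicate 2 and 15 when only the groups compared entered the fit. The wild type count was 18, of which 17 lower, in such a fit, 7 without either null day 8 replicate, and 0 without any 1 of the 4 wild type libraries of these days. Over all genes the null calls were 613 without null day 14 replicate 2 and 555 with only the groups compared, against 1217 with every library. The wild type calls over all genes were 1851 with only the groups compared, 931 to 935 without a null day 8 replicate and 108 to 309 without a wild type library, against 639. Of the 30 null calls, 15 were made in all 8 fits that left out 1 library, while those of Foxm1, Kif20a, Mad2l1 and Nuf2 were made in 2 or fewer. Markers of other cells moved between these days as well, by sums that were not tested. Cardiomyocyte sums rose in null cultures, from 105 and 59.0 CPM to 172 and 246 CPM. In wild type cultures they fell, from 2536 and 2087 CPM to 1006 and 892 CPM. Endothelial sums fell from 296 and 249.5 CPM to 134 and 95.4 CPM in null cultures. In wild type cultures they fell from 418 and 399 CPM to 179 and 135 CPM. The erythroid markers had 13 and 14.3 CPM at day 14 and 610.3 and 362 CPM at day 8 in null cultures, against 21.6 and 5.62 CPM and 329.6 and 311 CPM in wild type cultures. The macrophage markers had 95.2 and 119 CPM at day 14 and 4.84 and 0.863 CPM at day 8 in null cultures, against 227 and 334 CPM and 56.5 and 33.5 CPM in wild type cultures. The part of these cells in the fall of the 40 genes was not tested.

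**Figure D4:**
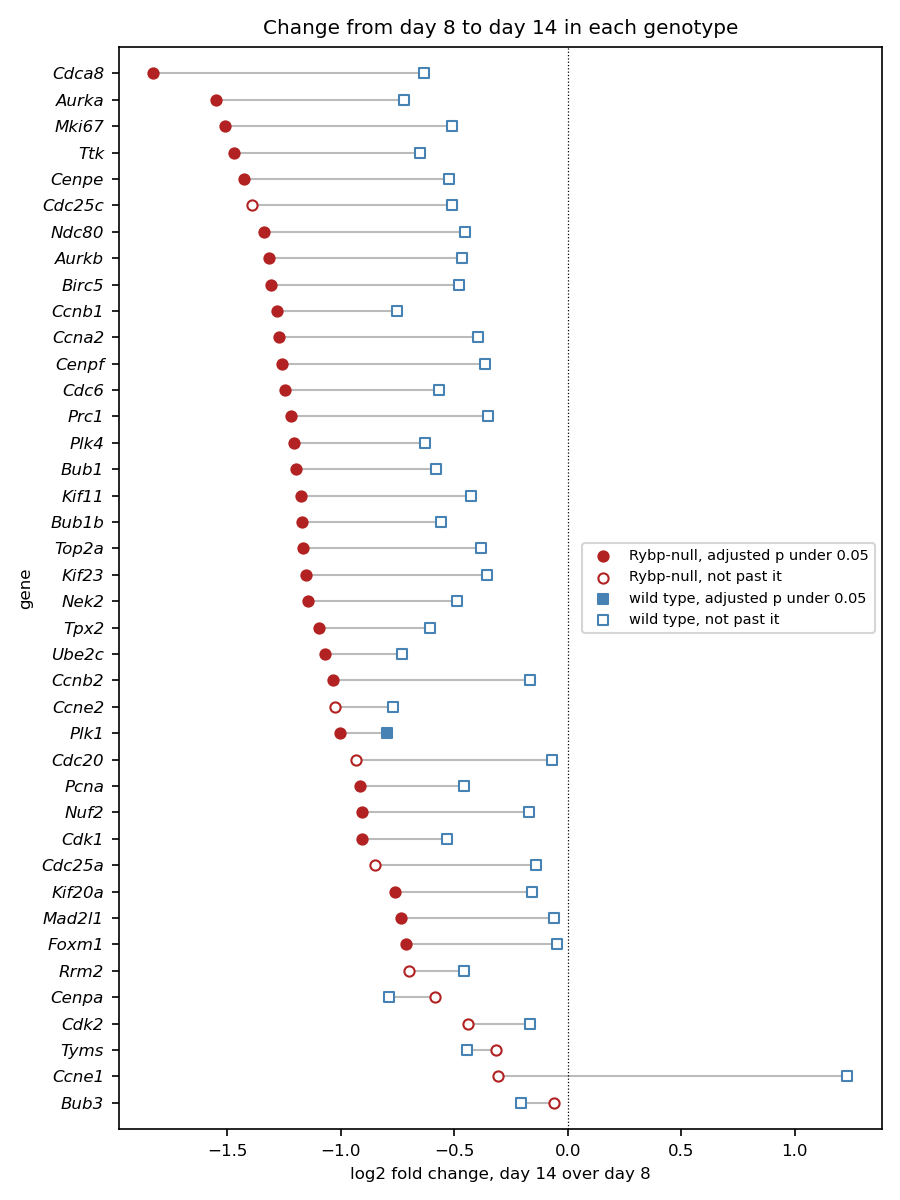
Log2 fold change of day 14 over day 8 for each of the 40 genes in null (circles) and wild type cultures (squares), sorted by the null value; filled marks have an adjusted p under 0.05. Filled are 30 null marks and 1 wild type mark, and the null mark lies left of the wild type one in 37 genes.

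Whether the genotypes changed differently from day 8 to day 14 was asked with an interaction term. By edgeR, 0 of the 40 genes and 0% of all genes were called in either direction. An unadjusted p under 0.05 was reached by 18 of the 40, against 6.08% of all genes. DESeq2 called 1 of the 40, Mki67, and 8 over all genes. Estimates below 0, a steeper decline in null cultures, were found for 37 of the 40, against 51.2% of all genes, with a median of -0.69. The lowest was that of Ccne1 (log2 change -1.54 with an SE of 0.69, adjusted p = 0.799), and that of lowest p was Mki67 (log2 change -1.0 with an SE of 0.21, adjusted p = 0.388). The comparison of genotypes at day 14 and that of days within null cells share the null day 14 libraries, so they are not separate evidence. Between day 0 and day 14 the interaction called 0 of the 40 genes and 0% of all genes. There 13 of the 40 had an unadjusted p under 0.05 (8.92% of all genes), and the median was -0.61. DESeq2 called 1 of the 40, Cenpf, and 61 over all genes. The edgeR estimates ran from -1.50 (Cenpf) to 0.49 (Cdk2). Between day 0 and day 8 the interaction called 0 of the 40, against 0.019% of all genes called higher and 0.0126% called lower. DESeq2 also called 0 of the 40, and 83 over all genes. There 1 gene, Cdc20, had an unadjusted p under 0.05, against 8.88% of all genes, with a median of -0.03 and a range from -0.66 (Ttk) to 1.32 (Ccne1).

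Other genes of the same machinery were set beside the 40. Among 35 further kinetochore and spindle genes, 0 were called between genotypes at day 14, against 0.354% of all genes lower and 0.259% higher. An unadjusted p under 0.05 was reached by 15 (12.9% of all genes). DESeq2 called 4 lower (Ect2, Kif2c, Knl1 and Spc25), and 202 over all genes, against 97 by edgeR. Of the 35, 32 had estimates below 0 and the median was -0.49. The extremes were Kif2c, a microtubule-depolymerising kinesin (log2 change -1.43 with an SE of 0.32, adjusted p = 0.0733), and Cdca3 (0.64). At day 8 the median was 0.19, with 0 called by edgeR or DESeq2 and 6 at an unadjusted p under 0.05 (13.4% of all genes). In the comparison of day 14 with day 0, 0 higher and 31 lower (23.8% and 22.5% of all genes) were called in null cells and 0 higher and 24 lower (24.1% and 20.8% of all genes) in wild type cells. Log2 fold changes ran from -3.44 (Ect2) to -0.11 (Zwint) in null cells and from -2.78 (Ect2) to 0.06 (Zwint) in wild type cells. The calls from day 0 to day 8 were 0 higher and 18 lower (19% and 18.6% of all genes) in null cells and 0 higher and 18 lower (21.2% and 19.3% of all genes) in wild type cells, and the range was from -2.52 (Ect2) to 0.46 (Zwint) in null cells and from -2.81 (Ect2) to 0.55 (Zwint) in wild type cells. Those from day 8 to day 14 were 0 higher and 23 lower (4.29% and 3.41% of all genes) in null cells and 0 higher and 0 lower (2.47% and 1.57% of all genes) in wild type cells, and the range was from -1.86 (Kif2c) to -0.02 (Mis12) in null cells and from -0.86 (Bora) to 0.46 (Cep55) in wild type cells. The ranges leave out Cenpm, a centromere protein gene with 0 to 5 counts in the libraries of days 8 and 14.

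Condensin and cohesin fold and hold chromosomes. Of their 13 genes 0 were called between genotypes at day 14, with 5 at an unadjusted p under 0.05 (12.9% of all genes). DESeq2 called 2 lower, Smc2 and Smc4, and 202 over all genes, against 97 by edgeR. The median of the 13 was -0.28, from -0.88 (Smc4) to 0.26 (Stag1). In the comparison of day 14 with day 0, 0 higher and 11 lower (23.8% and 22.5% of all genes) were called in null cells and 0 higher and 7 lower (24.1% and 20.8% of all genes) in wild type cells. Log2 fold changes ran from -2.45 (Smc2) to 0.64 (Ncaph2) in null cells and from -1.59 (Ncapd3) to 0.54 (Stag2) in wild type cells. The calls from day 0 to day 8 were 0 higher and 9 lower (19% and 18.6% of all genes) in null cells and 1 higher and 5 lower (21.2% and 19.3% of all genes) in wild type cells, and the range was from -1.46 (Ncapg) to 0.86 (Ncaph2) in null cells and from -1.24 (Ncapd3) to 1.08 (Ncaph2) in wild type cells. Those from day 8 to day 14 were 0 higher and 6 lower (4.29% and 3.41% of all genes) in null cells and 0 higher and 0 lower (2.47% and 1.57% of all genes) in wild type cells, and the range was from -1.33 (Smc2) to -0.09 (Stag1) in null cells and from -0.75 (Ncaph2) to -0.06 (Ncapg2) in wild type cells.

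The APC/C list held 15 subunits and regulators. In null against wild type cultures at day 14, 0 were called by edgeR or DESeq2 and 1 had an unadjusted p under 0.05 (12.9% of all genes), with a median of -0.25. In the comparison of day 14 with day 0, 3 higher and 3 lower (23.8% and 22.5% of all genes) were called in null cells and 3 higher and 2 lower (24.1% and 20.8% of all genes) in wild type cells. Log2 fold changes ran from -2.77 (Fbxo5) to 1.26 (Anapc2) in null cells and from -2.58 (Fbxo5) to 1.56 (Anapc2) in wild type cells. The calls from day 0 to day 8 were 3 higher and 2 lower (19% and 18.6% of all genes) in null cells and 3 higher and 1 lower (21.2% and 19.3% of all genes) in wild type cells, and the range was from -1.65 (Anapc10) to 1.49 (Anapc2) in null cells and from -2.01 (Fbxo5) to 1.68 (Anapc2) in wild type cells. Those from day 8 to day 14 were 0 higher and 1 lower (4.29% and 3.41% of all genes) in null cells and 0 higher and 0 lower (2.47% and 1.57% of all genes) in wild type cells, and the range was from -1.46 (Fbxo5) to 0.32 (Anapc1) in null cells and from -0.56 (Fbxo5) to 0.43 (Anapc7) in wild type cells. Fbxo5 encodes EMI1, an inhibitor of the APC/C.

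The 20 regulators from the E2F, RB and MuvB families had a median of -0.02 between genotypes at day 14, with 0 called by edgeR or DESeq2 and 3 at an unadjusted p under 0.05 (12.9% of all genes). In the comparison of day 14 with day 0, 0 higher and 8 lower (23.8% and 22.5% of all genes) were called in null cells and 2 higher and 7 lower (24.1% and 20.8% of all genes) in wild type cells. Log2 fold changes ran from -1.80 (E2f5) to 0.97 (Rbl2) in null cells and from -1.95 (E2f2) to 1.58 (E2f6) in wild type cells. The calls from day 0 to day 8 were 1 higher and 8 lower (19% and 18.6% of all genes) in null cells and 1 higher and 6 lower (21.2% and 19.3% of all genes) in wild type cells, and the range was from -2.14 (Mybl1) to 1.31 (Lin37) in null cells and from -1.92 (Mybl2) to 1.46 (E2f6) in wild type cells. Those from day 8 to day 14 were 0 higher and 0 lower (4.29% and 3.41% of all genes) in null cells and 0 higher and 0 lower (2.47% and 1.57% of all genes) in wild type cells, and the range was from -1.53 (E2f2) to 0.39 (Rbl2) in null cells and from -1.55 (E2f2) to 1.07 (Rbl2) in wild type cells. Mybl2, the gene of B-MYB, fell in both genotypes by day 8 and day 14.

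The G1 list held 5 genes, the D cyclins and their kinases. Between genotypes at day 14, 0 were called by edgeR or DESeq2 and 3 had an unadjusted p under 0.05 (12.9% of all genes), from -0.90 (Cdk6) to 1.0 (Ccnd2). In the comparison of day 14 with day 0, 2 higher and 0 lower (23.8% and 22.5% of all genes) were called in null cells and 3 higher and 1 lower (24.1% and 20.8% of all genes) in wild type cells. Log2 fold changes ran from -0.14 (Ccnd1) to 0.68 (Ccnd3) in null cells and from -1.52 (Ccnd1) to 2.43 (Ccnd2) in wild type cells. The calls from day 0 to day 8 were 2 higher and 1 lower (19% and 18.6% of all genes) in null cells and 3 higher and 1 lower (21.2% and 19.3% of all genes) in wild type cells, and the range was from -0.88 (Cdk6) to 1.06 (Ccnd3) in null cells and from -2.11 (Ccnd1) to 2.11 (Ccnd2) in wild type cells. Those from day 8 to day 14 were 1 higher and 0 lower (4.29% and 3.41% of all genes) in null cells and 0 higher and 0 lower (2.47% and 1.57% of all genes) in wild type cells, and the range was from -0.38 (Ccnd3) to 1.71 (Ccnd2) in null cells and from 0.06 (Ccnd3) to 1.32 (Cdk6) in wild type cells. The ranges from day 0 in null cells leave out Ccnd2, the gene of cyclin D2, which had 2 counts in the null library at day 0, against 8 counts in the wild type library; the calls count it. Ccnd2 had 0.338 CPM at day 0, 9.91 and 7.48 CPM at day 8 and 27.0 and 30.4 CPM at day 14 in null cells, against 2.64 CPM, 10.5 and 12.4 CPM and 11.6 and 17.1 CPM on those days in wild type cells.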

How the data were processed

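Libraries of the 10 samples were made from total RNA with Ovation and Encore kits of NuGEN, as the labels state. The authors deposited raw counts per gene; the submitters' processing notes name TopHat, HTSeq, DESeq and the mm9 build, and the strand setting is not given in the sources used here. Library totals ran from 3028153 to 6890792 counts. Genes were filtered with filterByExpr (minimum count 10), scaled by TMM and tested by edgeR 4.0.16 (R 4.3.3, limma 3.58.1) quasi-likelihood with Benjamini-Hochberg adjustment over 15819 genes at 0.05, in 1 fit of all 10 libraries in 6 groups with 4 residual degrees of freedom. Day 0 genotypes, with 1 library each, were described at a prior count of 2 and a 2-fold limit. The procedure was also run on simulated counts, with its outcome not given here. In them all groups shared the same means, apart from changes set in null day 14. These data differ, since many genes changed between days, so that run is no check of the day comparisons. DESeq2 1.42.0, other scalings, no filter, fewer libraries, a replicate block and left-out libraries were alternatives.

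The members and lists were chosen with earlier results of these data known. Values in every library are given for genes with the highest mean or largest day 8 change in their role, those called or lowest in p between genotypes, and the extremes of each comparison; other genes are given by range and count, and pathway lists by their extremes.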

Additional observations from a re-analysis of the deposited data

How the results depend on the processing

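Counts of called genes changed with the processing; the cause was not tested. For null against wild type at day 8 the 1 call became 2 with no filter and with DESeq2, and 0 with only the groups compared. That call was Cenpf, on chromosome 1, so the 0 without genes of chromosomes 1, 6, 8, 14 and Y was fixed in advance. The log2 change of Cenpf ran from 0.66 to 0.96 without single libraries. At day 14 the 3 calls became 11 with no filter, 5 with DESeq2 and 0 to 9 without single libraries, and Ndc80 lost its call with library totals, with only the groups compared and without genes of those chromosomes. The interaction between days 8 and 14 gave 1 call with no filter, 1 with DESeq2 and 0 without single libraries (main 0); that between days 0 and 14 gave 4, 1 and 0 to 1. From day 0 to day 8 the counts were 15 with only the groups compared and 21 to 24 without single libraries in null cells (main 23), and 14 to 27 in wild type cells (main 24). From day 0 to day 14 they were 34 to 36 in null and 28 to 32 in wild type cells. From day 8 to day 14 they were 15 with only the groups compared and 17 to 29 without single libraries in null cells (main 30). In wild type cells (main 1) they were 2 with no filter (Plk1 lower and Ccne1 higher), 2 with DESeq2 (both lower), 18 with only the groups compared and 0 to 7 without single libraries. The day 0 count of 1 was Cenpf as well, so without members on chromosomes 1, 6, 8 and 14 it was 0 by construction. The labels do not say whether replicate numbers pair the samples. Correlations of deviations between same-numbered libraries ran from -0.211 to 0.16, which cannot settle it. The replicate number could serve as a block at days 8 and 14. With it, the calls were 0 between genotypes at day 8 and 0 at day 14. They were 0 for the interaction, and 27 in null and 0 in wild type cells from day 8 to day 14. Over all genes the block left 138 calls between genotypes at day 8 and 74 at day 14, against 200 and 97 without it. The interaction called 0 over all genes with or without the block. From day 8 to day 14, 985 were called over all genes in null and 571 in wild type cells, against 1217 and 639. With the null day 14 numbers crossed, chosen after seeing the data, 29 of the listed genes were called in null cells. Over all genes that fit called 1237. No direction reversed in a called result. With 2 libraries per group and 1 at day 0, the number of libraries limits the precision.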
